A study of Mus musculus with 28 samples.

Results

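Neurons of the cerebral cortex lie in layers, and excitatory neurons of different layers differ in the genes they express and in where their axons go. Genes used to tell these layers apart were followed here in nuclei of mouse motor cortex, 10 of 41549 genes in the deposited tables, each found by its symbol in the table of HA-positive and in that of HA-negative nuclei. The 3 genes of the upper layers were Cux1, Cux2 and Rorb, and the 7 of the deep layers were Etv1, Fezf2, Bcl11b, Foxp2, Syt6, Tle4 and Hs3st4. As background, Cux1 and Cux2 are homeobox transcription factors of neurons that project within the cortex, and Rorb is a nuclear receptor of the layer that receives thalamic input. Fezf2 and Bcl11b (also called Ctip2) are transcription factors of neurons that project below the cortex, and Etv1 is an ETS family factor of layer 5. Foxp2, a forkhead factor, and Tle4, a Groucho family corepressor, mark layer 6 neurons that project to the thalamus. Syt6, a synaptotagmin, and Hs3st4, a heparan sulfate sulfotransferase, are also used as layer 6 markers. None of these genes belongs to cortical excitatory neurons alone: Bcl11b and Foxp2 are also expressed by projection neurons of the striatum, and Cux2, Etv1 and Bcl11b by some cortical interneurons.

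The tissue came from 7 mice, titled 17 to 23, whose left and right motor cortex had each been injected with an adeno-associated virus (AAV) that delivers Cas9, a nuclease. All animals carried the vector AAV-Cas9-miR-124-empty on the left and AAV-Cas9-miR-124-g4 on the right, so vector and hemisphere cannot be told apart; no uninjected hemisphere was among the samples analysed here. Strain, age, the promoter of the vector and what g4 stands for were not given in the sources used here. Nuclei of tissue fixed in 1% paraformaldehyde were stained for the HA tag, and the sort parted HA-positive nuclei, which the labels list as Cas9 positive, from HA-negative ones. With 2 vectors and 2 fractions that gave 4 groups of 7 libraries, 28 in all. Libraries were made from 40 to 2000 pg of RNA. The replicates of a group are different animals, and each animal gave 1 library to every group.

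A library held 248612 to 902944 counts over 8687 to 13668 detected genes, and 4 HA-positive libraries had fewer than 10000 genes (empty vector, animals 17, 21 and 22, and g4, animal 18). The layer genes together took 68 to 209 counts in the empty HA-positive libraries, 128 to 425 in the g4 HA-positive ones and 139 to 556 in the HA-negative ones, and 1 count was worth 1.09 to 3.84 CPM (a count scaled to library size). The library labelled g4 HA-positive of animal 19 stood apart: it held 591 counts of Xist together with 44 of Y-linked genes, and its summed oligodendrocyte markers reached 1467 CPM against 101 to 218 in the other libraries of that group. The other libraries of animal 19, and those of animals 17, 18 and 20, held Y-linked counts and 0 of Xist. Libraries of animals 21 to 23 held Xist counts and 0 to 2 Y-linked ones, so both sexes were present. Whether the library that stood apart held RNA of another animal was not tested. That library was kept in the main fits and in the counts of animals. Calls and directions of layer genes that changed when it was left out are given with the results or with the processing alternatives.

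The genes are shown here with their sites for miR-124, the microRNA in the vectors' names, because the g4 vector was compared with the empty one. A microRNA pairs through its seed with short matches in the 3' untranslated region (3' UTR) of a transcript. Searching the longest annotated 3' UTR of each gene for GTGCCTT (7mer-m8), TGCCTTA (7mer-A1) and the joint form GTGCCTTA (8mer) on the sense strand gave at least 1 match in 5 of the 10 layer genes, Cux1, Rorb, Etv1, Bcl11b and Tle4, against 4128 of 20977 genes (19.7%) in all. Cux2, Fezf2, Foxp2, Syt6 and Hs3st4 held 0 matches in that window. The searched 3' UTR had 8376 bases in Cux1, 7275 in Rorb, 4997 in Bcl11b, 4715 in Etv1 and 1584 in Tle4. In the genes with 0 matches it had 402 (Fezf2) to 4229 bases (Cux2). A longer stretch gives more room for a match, and the 19.7% was not matched for length, so the 2 shares cannot be compared directly. Each line below is 30 bases of transcript sense sequence from the GENCODE vM21 annotation on GRCm38, with the match in capitals.
Cux1 (7mer-m8): gcaatattcaaGTGCCTTgaacagcgctcc
Cux1 (8mer): agaaaggaaagGTGCCTTAaatcccaatac
Rorb (7mer-A1): tatatcatggcTGCCTTAtcaatcaagcag
Etv1 (7mer-m8): gcattgagcgtGTGCCTTgctgtttcattc
Etv1 (7mer-A1): gctgataagtaTGCCTTAaaaatcaggaca
Etv1 (7mer-m8): tagattagtggGTGCCTTtataaaaatatt
Bcl11b (7mer-m8): atttgatgtgcGTGCCTTgaaaaccgatct
Bcl11b (7mer-m8): gaaggaattctGTGCCTTcccatctatgtt
Tle4 (7mer-m8): gctgatgtacaGTGCCTTtgctgctatgga
A match is a stretch of letters and not a measured binding site.

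Bcl11b, Foxp2 and Tle4 differed between HA-positive and HA-negative nuclei with both vectors, as described further on. The sources used here gave no promoter of Foxp2, so those of Bcl11b and Tle4 are printed. Each runs from 250 bases before to 50 bases after a RefSeq transcription start (GRCm38.p6, minus strand, written 5' to 3' in gene sense), Bcl11b from chr12:108003365-108003664 and Tle4 from chr19:14598134-14598433. Capitals mark matches, on either strand, to 5 short motifs, which are the forkhead motif TGTTTAC, the homeobox motif TAATTA, the GC box GGGCGG, the CCAAT box by its own letters, and the TATA box, searched as TATAAA; no 2 matches overlap here.
Bcl11b: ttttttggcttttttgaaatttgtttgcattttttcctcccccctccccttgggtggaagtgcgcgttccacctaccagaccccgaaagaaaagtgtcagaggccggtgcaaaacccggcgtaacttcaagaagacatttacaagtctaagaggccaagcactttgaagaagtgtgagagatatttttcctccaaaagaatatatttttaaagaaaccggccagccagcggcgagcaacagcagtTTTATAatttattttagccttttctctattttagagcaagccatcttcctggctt
Tle4: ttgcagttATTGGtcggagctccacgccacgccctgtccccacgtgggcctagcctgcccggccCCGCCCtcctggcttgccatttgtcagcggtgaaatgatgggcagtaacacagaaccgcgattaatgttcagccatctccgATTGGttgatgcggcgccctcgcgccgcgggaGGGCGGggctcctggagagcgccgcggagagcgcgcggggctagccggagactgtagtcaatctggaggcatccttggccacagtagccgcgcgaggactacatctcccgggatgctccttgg
The Bcl11b window held 1 TATA box match, found in 14.2% of 27025 promoters, and was 43.0% G and C. The Tle4 window held 2 GC box matches and 2 CCAAT matches, motifs found in 35.9% and 37.9% of promoters, and was 65.0% G and C. These windows shared no motif of the 5. Neither held the forkhead motif (3.55% of promoters) or the homeobox motif (5.31%), which says only that those letters are not there.

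Differences that passed the test lay between the sorted fractions and in deep-layer genes, and none lay between the vectors. In the empty hemispheres Cux2 had 92.5 ± 37.6 CPM in HA-positive and 59.5 ± 20.0 CPM in HA-negative nuclei (SD, n = 7), while Foxp2 had 5.78 ± 10.0 against 64.5 ± 22.3 CPM and Syt6 6.41 ± 8.81 against 61.1 ± 22.6 CPM. The difference passed the test for Foxp2 and Syt6 but not for Cux2. With g4, Foxp2 had 7.87 ± 11.8 against 58.0 ± 16.6 CPM and passed, while Cux2 (86.0 ± 30.6 against 57.0 ± 15.2 CPM) and Syt6 (23.8 ± 29.4 against 53.9 ± 14.5 CPM) did not. In these sums over many nuclei, fewer nuclei of a type and less RNA of a gene per nucleus cannot be told apart.

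**Figure D1:**
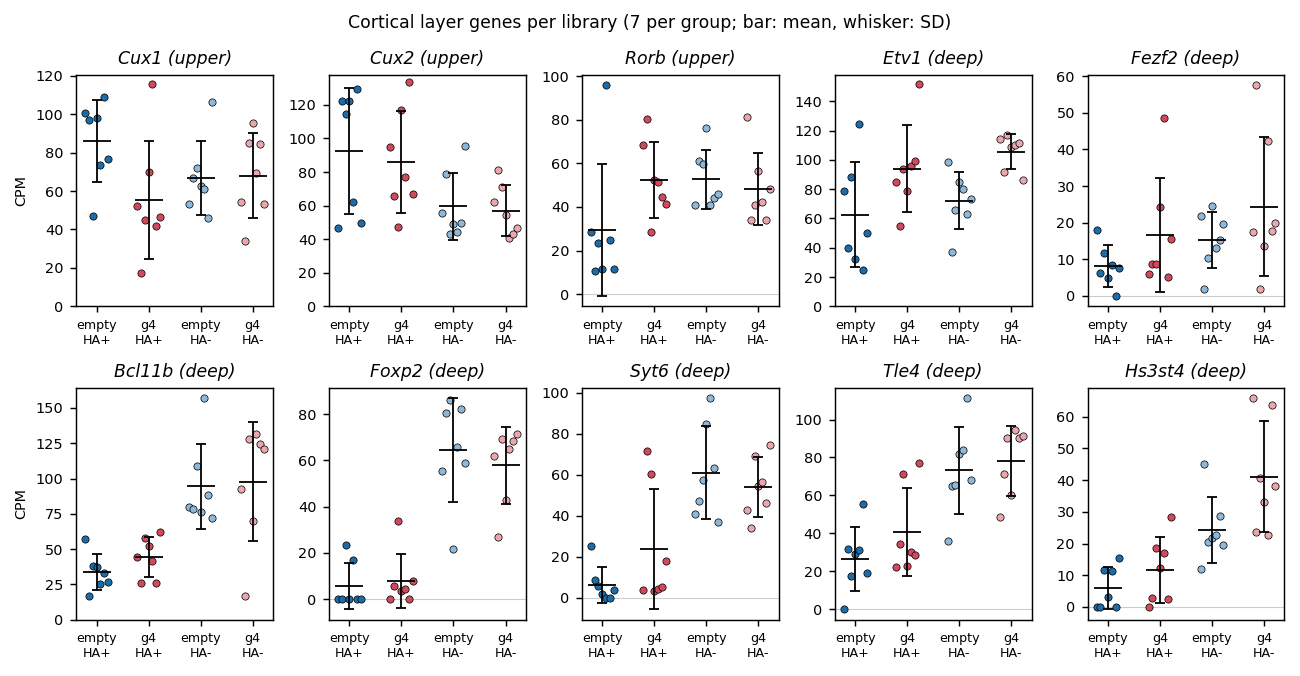
CPM of each layer gene (y axis, own linear scale per gene) in every library of the 4 groups (x axis), with the mean as a bar and the SD as whiskers over 7 libraries. The means of Foxp2, Syt6, Bcl11b, Tle4 and Hs3st4 are lower in the HA-positive groups than in the HA-negative ones, with Syt6 of g4 animals 18 (71.7 CPM) and 19 (60.1 CPM) inside the HA-negative range.

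Levels of different genes can be set side by side only per length of transcript. Per kilobase of annotated exon, the highest layer gene in empty HA-positive nuclei was Cux2, with 9.17 ± 3.73 CPM per kb, and the lowest was Foxp2, with 0.353 ± 0.615. Between them came Etv1 (4.71 ± 2.70), Tle4 (4.62 ± 2.98), Cux1 (4.29 ± 1.07), Bcl11b (4.14 ± 1.59), Fezf2 (2.67 ± 1.84), Rorb (2.66 ± 2.73), Hs3st4 (1.87 ± 2.08) and Syt6 (1.10 ± 1.51 CPM per kb). Only the step from Cux2 to Etv1 was larger than the SD of both neighbours. In empty HA-negative nuclei the order began with the layer 6 corepressor Tle4 (12.8 ± 4.02), Bcl11b (11.6 ± 3.73), Syt6 (10.5 ± 3.88) and Hs3st4 (7.65 ± 3.27 CPM per kb). Cux2 followed at 5.90 ± 1.98, Etv1 at 5.41 ± 1.46, Fezf2 at 5.00 ± 2.52, Rorb at 4.76 ± 1.21, Foxp2 at 3.95 ± 1.37 and Cux1 at 3.34 ± 0.967 CPM per kb, and no neighbours in that order differed by more than both SDs. With g4 the first gene was again Cux2 in HA-positive nuclei (8.53 ± 3.04) and Tle4 in HA-negative nuclei (13.7 ± 3.20 CPM per kb). The library of nuclei holds unspliced RNA, and whether reads in introns were counted is not given in the sources used here, so these lengths are an approximation.

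Each library was also described by the log2 ratio of the summed CPM of the 3 upper-layer genes to that of the 7 deep-layer genes. Neither sum is corrected for length, so its level has no meaning by itself and only libraries are compared. The ratio was 0.51 ± 0.60 in empty HA-positive libraries (SD, n = 7, from -0.09 to 1.22) and -1.19 ± 0.47 in empty HA-negative ones (from -1.83 to -0.49). It was higher in the HA-positive library of all 7 animals, by 1.70 on average, and these groups did not overlap. With g4 it was -0.28 ± 0.79 in HA-positive libraries (from -1.52 to 0.42) and -1.40 ± 0.35 in HA-negative ones (from -1.78 to -0.89), a difference of 1.12 that was positive in 6 of 7 animals, and these groups overlapped. The lowest g4 HA-positive values belonged to animals 19 (-1.52) and 23 (-1.22), and leaving out animal 19's HA-positive library, the difference became 1.33. The part that moved was the deep-layer sum, at 149 ± 47.5 CPM in empty HA-positive and 405 ± 64.6 CPM in empty HA-negative libraries, and 239 ± 81.6 against 459 ± 79.6 CPM with g4. The upper-layer sum was 208 ± 42.9 against 179 ± 38.9 CPM with the empty vector and 194 ± 47.6 against 173 ± 26.0 CPM with g4, differences smaller than the SDs. No p is given for the ratio, a score over genes chosen with results of these data known.

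**Figure D2:**
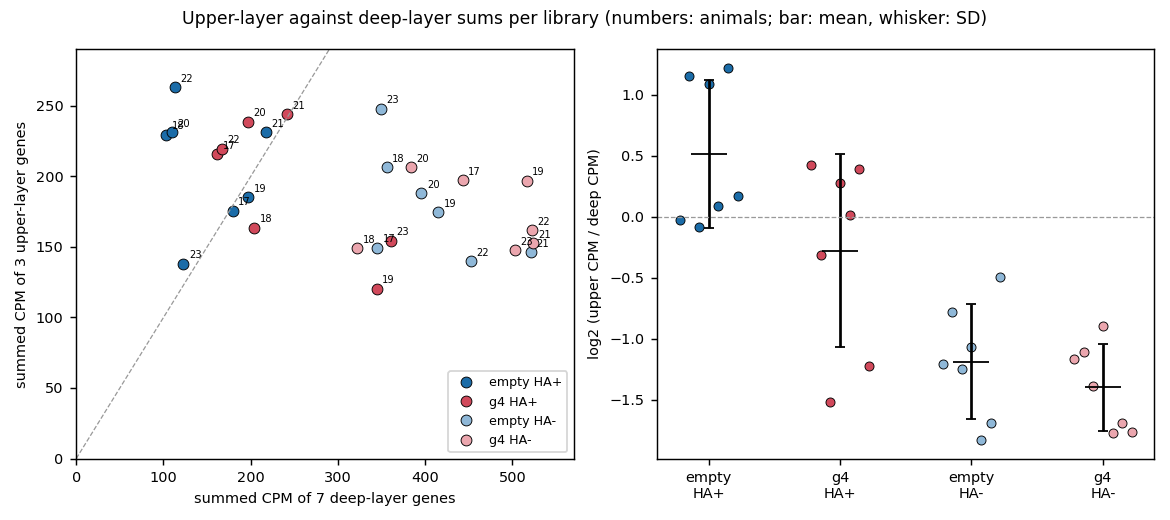
Left, the summed CPM of the upper-layer genes (y axis) against that of the deep-layer genes (x axis), 1 point per library with its animal number, and equal sums on the dashed line. Right, the log2 ratio of the sums by group with mean and SD: empty HA-positive libraries lie between -0.09 and 1.22, above all empty HA-negative libraries.

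The first comparison asked how nuclei with the HA tag differed from those without it in the hemispheres of the empty vector. Of the deep-layer genes, 4 of the 5 tested fell in HA-positive nuclei (edgeR quasi-likelihood test, Benjamini-Hochberg adjusted p under 0.05), and 0 of the 3 upper-layer genes passed in either direction. Among all 5538 genes tested, 3.5% were called lower and 3.5% higher. The median log2 fold change was -1.50 over the 5 deep-layer genes, 0.38 over the upper-layer genes and 0.01 over all tested genes. Fezf2 and Hs3st4 had too few counts to pass the filter. A gene near 0 in HA-positive nuclei, such as Foxp2, passed it through its HA-negative level, so these shares describe the tested genes only. Without animal 19 the count fell to 2, with Foxp2 below the filter. That fit called 129 of 5610 genes lower, against 194 of 5538 in the main fit.

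Syt6 ranged from 0 through a median of 3.84 to 25.1 CPM in empty HA-positive libraries and from 36.7 through 57.5 to 97.2 CPM in empty HA-negative ones. The groups did not overlap, and 2 HA-positive libraries had 0 counts. On the log2 scale Syt6 fell by 3.36 ± 0.55 (SE, lower in 7 of 7 animals, edgeR adjusted p = 8.98e-05). Foxp2, the forkhead factor of layer 6, was at 0 in 5 of the 7 empty HA-positive libraries and reached 23.5 CPM in the highest, against 21.8 to 86.2 CPM (median 66.0) in the HA-negative ones. Its groups met only at that edge, it was lower in 7 of 7 animals, and it fell by 3.53 ± 0.65 on the log2 scale (edgeR adjusted p = 0.000564).

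Bcl11b, which in deep layers marks neurons projecting below the cortex, ran from 16.9 to 57.4 CPM (median 32.9) in empty HA-positive libraries and from 72.1 to 157 CPM (median 79.6) in HA-negative ones. The ranges were separate, and Bcl11b fell by 1.50 ± 0.29 on the log2 scale (7 of 7 animals, edgeR adjusted p = 0.000836). Tle4 ran from 0 to 55.5 CPM (median 29.3) against 36.2 to 111 CPM (median 68.2). It was lower in 7 of 7 animals although the groups overlapped, and it fell by 1.39 ± 0.38 on the log2 scale (edgeR adjusted p = 0.0198). The Tle4 call was lost when animal 19, 20 or 23 was left out (adjusted p 0.0700, 0.0650 and 0.0635).

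The other deep-layer genes did not pass. Hs3st4 was at 0 in 3 empty HA-positive libraries and at most 15.4 CPM, against 12.1 to 45.2 CPM in HA-negative ones, and was lower in 7 of 7 animals. It was below the filter here, and a fit of all 28 libraries in 1 model, where it was kept, gave a log2 fold change of -2.15 (edgeR adjusted p = 0.0157). It did not pass with no filter on low counts (adjusted p = 0.0539) or without the libraries under 10000 genes (adjusted p = 0.0737). Fezf2, which specifies subcortical projection neurons during development, had 8.15 ± 5.62 against 15.2 ± 7.67 CPM (SD, n = 7), lower in 5 of 7 animals. Etv1, the layer 5 factor, had 62.6 ± 35.8 against 71.9 ± 19.4 CPM and a log2 fold change of -0.21 ± 0.32 (SE, edgeR adjusted p = 0.795).

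Of the upper-layer genes, Cux2 ran from 46.6 to 130 CPM (median 115) in HA-positive and from 43.1 to 95.7 CPM (median 49.8) in HA-negative libraries, and its log2 fold change of 0.67 ± 0.28 missed the threshold (higher in 5 of 7 animals, unadjusted p 0.0217, edgeR adjusted p = 0.158). Cux1, its paralogue, had a log2 fold change of 0.38 ± 0.25 (5 of 7 animals, adjusted p = 0.442). Rorb went the other way, with 10.5 to 28.7 CPM in 6 empty HA-positive libraries and 95.9 CPM in that of animal 21, against 40.8 to 76.4 CPM in HA-negative ones. Its log2 fold change of -0.82 ± 0.42 did not pass (edgeR adjusted p = 0.279), but without animal 21 it was -1.56 (adjusted p = 0.0108) and without the libraries under 10000 genes, of which animal 21 gave 1, it was -1.89 (adjusted p = 0.00126).

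With the g4 vector, 4 of the 7 deep-layer genes fell in HA-positive nuclei and all 7 log2 fold changes were below 0 (median -1.15), while 0 of the 3 upper-layer genes passed (median 0.10, and 0.01 over all tested genes; 0.22 without animal 19's HA-positive library). Of 6264 genes tested, 3.08% were called lower and 3.32% higher. Here too Foxp2, Hs3st4 and Syt6, low in most HA-positive libraries, passed the filter through their HA-negative level, so these shares describe the tested genes only. The genes that fell were Foxp2, Hs3st4, Bcl11b and Tle4, and of these Foxp2, Bcl11b and Tle4 were called with the empty vector too. Only 2 layer genes were called without animal 17 or 21, and 1 without animal 22. Calls also became fewer over all genes: 193 were called lower in the main fit. The fits without animals 17, 21 and 22 called 129 of 6483, 91 of 6146 and 104 of 6234 lower.

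Foxp2 ran from 0 to 33.9 CPM (median 4.28) in g4 HA-positive libraries and from 27.1 to 71.3 CPM (median 65.0) in g4 HA-negative ones. The single HA-positive value that reached into the other group's range was the 33.9 CPM of animal 19, and the next was 7.72 CPM. Foxp2 fell by 2.64 ± 0.51 on the log2 scale (lower in 7 of 7 animals, edgeR adjusted p = 0.00194), and fell by 3.99 ± 0.47 without that library (adjusted p = 1.08e-07). Hs3st4 ran from 0 to 28.3 CPM (median 12.2) against 22.6 to 65.8 CPM (median 38.1). It fell by 1.75 ± 0.45 on the log2 scale (7 of 7 animals, edgeR adjusted p = 0.0143), a call lost without animal 17 or 22 (adjusted p 0.0688 and 0.0995).

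Bcl11b ran from 25.8 to 61.8 CPM (median 44.4) in g4 HA-positive and from 16.9 to 131 CPM (median 121) in g4 HA-negative libraries. The 16.9 CPM belonged to animal 18, where the order was turned, and in the other 6 animals Bcl11b was lower in HA-positive nuclei. It fell by 1.15 ± 0.28 on the log2 scale (edgeR adjusted p = 0.0105), and without animal 21 or 22 the adjusted p was 0.0656 and 0.0688. Tle4 ran from 22.2 to 77.2 CPM (median 30.0) against 48.4 to 94.7 CPM (median 90.5), with overlap between the groups. It fell by 0.93 ± 0.28 on the log2 scale (7 of 7 animals, adjusted p = 0.0370), a call that was lost without animal 17, 18, 20, 21 or 22 (adjusted p 0.0520 to 0.169) and in the fit of all 28 libraries (adjusted p = 0.0913).

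Syt6 split the g4 HA-positive libraries, with 71.7 CPM in animal 18 and 60.1 CPM in animal 19 against 3.48 to 18.0 CPM in the other 5 libraries. The HA-negative libraries lay between 33.9 and 74.6 CPM, so 2 of 7 HA-positive libraries were within their range. Its log2 fold change of -1.18 ± 0.59 did not pass (edgeR adjusted p = 0.320), nor did the -1.75 ± 0.55 without the library of animal 19 (adjusted p = 0.0577). With no filter on low counts Syt6 passed (adjusted p = 0.0229). Animal 18's library was 1 of the 4 under 10000 genes. Etv1 (-0.17 ± 0.19) and Fezf2 (-0.43 ± 0.52 on the log2 scale) were less than 1 SE from 0.

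Among the upper-layer genes with g4, Cux2 had 86.0 ± 30.6 against 57.0 ± 15.2 CPM and a log2 fold change of 0.61 ± 0.24, close to that with the empty vector, and again did not pass (5 of 7 animals, unadjusted p 0.0166, edgeR adjusted p = 0.153). Without animal 19 altogether it was 0.79 (adjusted p = 0.0443). Cux1 had 55.4 ± 30.8 against 67.9 ± 22.0 CPM and Rorb 52.4 ± 17.4 against 48.2 ± 16.6 CPM (SD, n = 7), with log2 fold changes of -0.27 ± 0.28 and 0.10 ± 0.27.

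**Figure D3:**
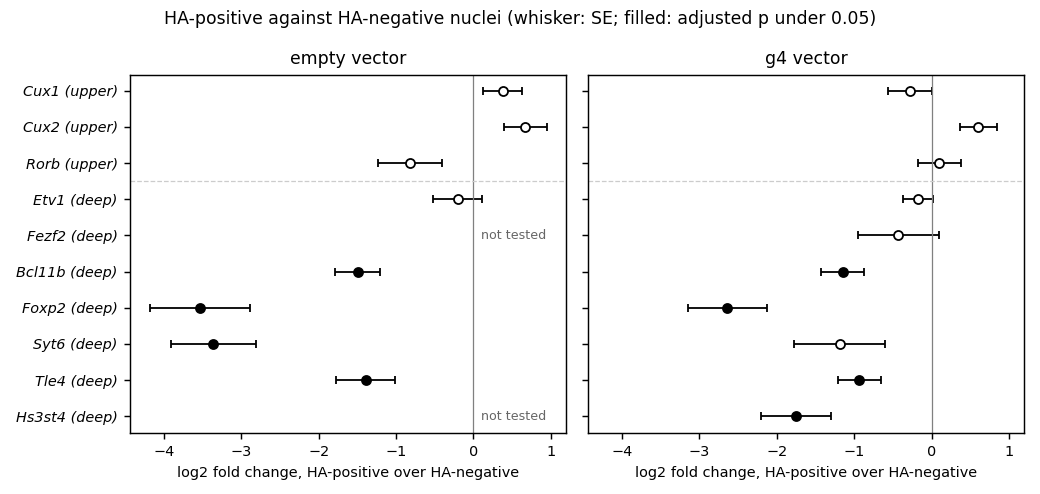
Log2 fold change of each layer gene, HA-positive over HA-negative (x axis), with SE as whiskers, for the empty vector (left) and g4 (right), with filled points for adjusted p under 0.05. Filled points, Bcl11b, Foxp2, Syt6 and Tle4 on the left and Bcl11b, Foxp2, Tle4 and Hs3st4 on the right, lie at -0.93 or lower and all are deep-layer genes.

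Other genes of the same layers were counted from lists. Of 13 further upper-layer genes, 8 were tested in the empty hemispheres. Rasgrf2, a Ras exchange factor, rose by 1.05 ± 0.25 on the log2 scale (adjusted p = 0.00822) in HA-positive nuclei, Lmo4, a LIM-only cofactor, fell by 0.92 ± 0.22 (adjusted p = 0.00614), and the median was 0.11. With g4, 0 of 9 were called (median 0.18), and without animal 19's HA-positive library Calb1, a calcium-binding protein, rose by 1.06 ± 0.25 on the log2 scale (adjusted p = 0.00538).

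Layer 5 genes moved in both directions. Of 11 found in the tables, 4 were tested with the empty vector. Pcp4, a calmodulin-binding peptide, fell by 1.81 ± 0.26 on the log2 scale (82.4 ± 41.0 against 283 ± 110 CPM, adjusted p = 1.76e-05) and Parm1 rose by 1.08 ± 0.26 (adjusted p = 0.00775). With g4 6 were tested, and Pcp4 fell by 0.90 ± 0.22 (159 ± 57.7 against 297 ± 79.6 CPM, adjusted p = 0.0174), Crym, a thyroid hormone binding protein, fell by 1.78 ± 0.42 (adjusted p = 0.00621) and Parm1 rose by 0.89 ± 0.22 (adjusted p = 0.00874). Pcp4 is also abundant in striatal projection neurons.

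Of 12 further layer 6 and subplate genes in the tables, few had the counts for a test: 0 of 3 were called with the empty vector and 0 of 4 with g4 (medians -0.27 and 0.01, and -0.11 over 5 tested with g4 without animal 19's HA-positive library). Tbr1, the T-box factor of layer 6, had 42.1 ± 28.2 against 76.6 ± 26.6 CPM with the empty vector (log2 fold change -0.87 ± 0.42, edgeR adjusted p = 0.259) and 67.9 ± 28.9 against 74.0 ± 11.0 CPM with g4. Ntsr1, a receptor of layer 6 neurons projecting to the thalamus, had means of 0.767 to 6.05 CPM in the 4 groups and was not tested. Of the 9 genes not tested with the empty vector, 8 had a lower mean in HA-positive than in HA-negative nuclei, among them Rprm (0.549 ± 1.45 against 13.7 ± 9.81 CPM), Sla (1.65 ± 4.35 against 10.4 ± 2.96 CPM), Thsd7b (0.233 ± 0.616 against 9.61 ± 8.61 CPM) and Ccn2 (5.27 ± 7.63 against 18.6 ± 8.67 CPM). Rxfp1 had a higher one (17.9 ± 11.2 against 11.6 ± 6.19 CPM).

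Markers of other cell types differed between the same fractions. Of 13 inhibitory neuron markers 12 were tested and 10 rose in HA-positive nuclei with each vector (medians 1.55 and 1.37), and their summed level ran from 3393 to 4763 CPM in empty HA-positive, 2033 to 4105 in g4 HA-positive, 1094 to 1492 in empty HA-negative and 991 to 1476 CPM in g4 HA-negative libraries. Of 9 excitatory neuron markers 8 were tested, all 8 with the empty vector and 7 with g4 were below 0 (medians -0.53 and -0.28), and 1 fell in each, Arpp21 (by 1.06 ± 0.21 and 0.83 ± 0.13 on the log2 scale). Slc17a7, the vesicular glutamate transporter that defines cortical excitatory neurons, had 267 ± 76.9 and 273 ± 100 CPM in the empty and g4 HA-positive groups and 345 ± 77.9 and 382 ± 100 CPM in the HA-negative ones. The called deep-layer genes fell by more than the excitatory list's median, but a call picks genes with large falls, so this does not set the layers apart. Over all tested deep-layer genes, called or not, the medians were -1.50 with the empty vector and -1.15 with g4. Some of those genes passed the filter only through their HA-negative level, and the difference from the excitatory list was not tested. Of the deep-layer genes not called, Etv1 had -0.21 with the empty vector and -0.17 with g4, nearer to 0 than the excitatory medians. Fezf2 (-0.43) and Syt6 (-1.18) with g4 were farther from 0. The part of these cell type differences in the layer gene result was not tested.

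Markers of striatal projection neurons, which share Bcl11b and Foxp2 with deep cortical layers, fell with the deep-layer genes although the tissue is labelled motor cortex. Of 14, 9 of 10 tested fell with the empty vector and 9 of 12 with g4 (medians -2.42 and -1.86). Their summed level was 364 to 671 CPM in empty HA-positive and 366 to 1046 CPM in g4 HA-positive libraries, against 1396 to 3400 and 590 to 2604 CPM in the HA-negative ones. Of the defining markers, Adora2a was at 0 in all 7 empty HA-positive libraries and Ppp1r1b in 4 of them, while in empty HA-negative libraries they had 20.6 ± 15.7 and 63.7 ± 36.1 CPM (SD, n = 7). Tac1 and Pdyn of the same list went the other way. With the empty vector Tac1 had 88.3 ± 48.4 against 70.0 ± 26.5 CPM and Pdyn 37.6 ± 32.8 against 17.4 ± 5.09 CPM. With g4 their log2 fold changes were 0.54 and 0.21, and neither was called. Computed without Bcl11b and Foxp2, the upper-to-deep ratio was higher in HA-positive than in HA-negative nuclei by 1.43 with the empty vector and 0.90 with g4. The g4 HA-negative libraries of animals 17 and 18, lowest in striatal markers with 662 and 590 CPM, had deep-layer sums of 443 and 322 CPM, against 384 to 523 CPM in the other 5. Bcl11b was at 92.9 CPM in animal 17 and 16.9 CPM in animal 18, against 70.1 to 131 CPM in the other 5. Foxp2 was at 61.9 and 27.1 CPM, against 42.8 to 71.3 CPM. The part of striatal nuclei in the fall of the deep-layer genes was not tested.

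Oligodendrocyte markers fell in 6 of 6 tested genes with the empty vector and 5 of 7 with g4, and microglial markers in 4 of 4 and 3 of 5. Oligodendrocyte precursor markers fell in 1 of 1 and 2 of 2, astrocyte markers in 1 of 5 (Slc1a2) and 0 of 5, and none of the 3 endothelial markers was tested. Without animal 19's HA-positive library, 8 of 8 oligodendrocyte, 5 of 5 microglial and 10 of 12 striatal markers fell with g4, and 11 of 13 inhibitory markers rose. That fit called 265 of 6371 genes lower and 242 higher, against 193 and 208 of 6264 in the main fit. The part of these markers in the layer gene result was not tested.

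**Figure D4:**
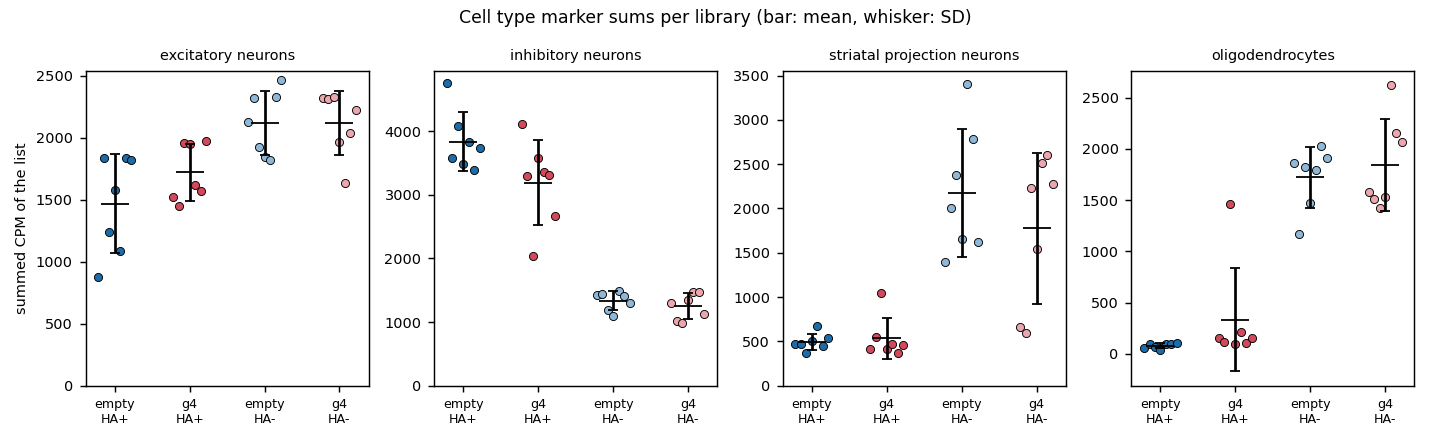
Summed CPM (y axis, own linear scale per panel) of 4 marker lists in every library of the 4 groups (x axis), with mean and SD. Inhibitory markers are higher and striatal and oligodendrocyte markers lower in HA-positive libraries, apart from animal 19's g4 HA-positive library, where oligodendrocyte markers sum to 1467 CPM.

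The comparison of the vectors asked how the g4 hemisphere differed from the empty one. In HA-positive nuclei 0 of the 6 layer genes tested passed, where 0.0599% of 5011 genes did (3 genes, with 335 at an unadjusted p under 0.05). The lowest unadjusted p of a layer gene was 0.0519 (Cux1), and DESeq2 called 0 of them. The medians were -0.15 over the 3 upper-layer genes, 0.57 over the 3 deep-layer genes tested and -0.01 over all genes, and without animal 19's g4 library -0.04 and 0.37 over the upper-layer and deep-layer genes. Fezf2, Foxp2, Syt6 and Hs3st4 were below the filter.

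Cux1, with an 8mer and a 7mer-m8 in its 3' UTR, had 85.9 ± 21.4 CPM with the empty vector and 55.4 ± 30.8 CPM with g4 (SD, n = 7). It was lower with g4 in 6 of 7 animals, with the exception at 116 CPM, and its log2 fold change was -0.62 ± 0.31 (SE, edgeR adjusted p = 0.736). Rorb had 29.5 ± 30.2 against 52.4 ± 17.4 CPM and was higher with g4 in 6 of 7 animals (log2 fold change 0.81 ± 0.44, adjusted p = 0.754). That Rorb value was 1.50 without animal 21 (adjusted p = 0.468), 0.52 without animal 18 (adjusted p = 0.886) and 1.76 without the libraries under 10000 genes (adjusted p = 0.234). Etv1, with 3 sites, had 62.6 ± 35.8 against 94.1 ± 29.6 CPM and was higher in 6 of 7 animals (0.59 ± 0.31, adjusted p = 0.752). Genes with sites for miR-124 thus had values on both sides of 0.

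Bcl11b, with 2 sites, had 33.6 ± 12.9 against 44.2 ± 14.3 CPM (log2 fold change 0.40 ± 0.36, edgeR adjusted p = 0.895), and Tle4, with 1 site, 26.3 ± 17.0 against 40.9 ± 23.2 CPM (0.57 ± 0.47, adjusted p = 0.867). The Tle4 value was 0.37 without animal 19's g4 library, and 0.29, 0.31 and 0.93 without animals 19, 23 and 22. Cux2, with no site found, had 92.5 ± 37.6 against 86.0 ± 30.6 CPM (-0.15 ± 0.28, adjusted p = 0.957). Of the genes below the filter, Syt6 had 6.41 ± 8.81 against 23.8 ± 29.4 CPM, Hs3st4 5.95 ± 6.63 against 11.7 ± 10.4 CPM and Fezf2 8.15 ± 5.62 against 16.7 ± 15.5 CPM. Foxp2 had 5.78 ± 10.0 against 7.87 ± 11.8 CPM, and the direction turned without animal 19's g4 library, which left 3.54 ± 3.10 CPM (SD, n = 6). In these 4 genes the SD with g4 was near or above the mean. The upper-to-deep ratio was lower with g4 by 0.79 (6 of 7 animals), or by 0.59 without the g4 library of animal 19, and the groups overlapped. Of the 14 libraries in this comparison, 3 of the empty and 1 of the g4 group had fewer than 10000 genes.

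In HA-negative nuclei 0 of the 10 layer genes passed, where edgeR called 0.0% of 6262 genes (236 had an unadjusted p under 0.05, and DESeq2 called 1 gene, which was not a layer gene). The medians were -0.10 over the upper-layer and 0.09 over the deep-layer genes. Etv1 came nearest, with 37.4 to 98.9 CPM (median 73.4) in empty and 86.2 to 117 CPM (median 110) in g4 libraries. It was higher with g4 in 7 of 7 animals with overlap between the groups, and its log2 fold change of 0.56 ± 0.19 had an unadjusted p of 0.00557 and an edgeR adjusted p of 0.999. Hs3st4 had 24.4 ± 10.4 against 41.1 ± 17.5 CPM (0.76 ± 0.32, higher in 5 of 7 animals, adjusted p = 0.999), from 0.51 to 1.05 when each animal was left out in turn. Fezf2 ran from 0.16 to 0.86 in those fits.

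The other 8 genes had log2 fold changes from -0.17 (Syt6) to 0.63 (Fezf2). All but the Fezf2 value were smaller in size than their SE, among them Cux1 (0.03 ± 0.22), Bcl11b (0.07 ± 0.27) and Tle4 (0.09 ± 0.21). The upper-to-deep ratio differed by -0.21, higher with g4 in 4 animals and lower in 3.

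**Figure D5:**
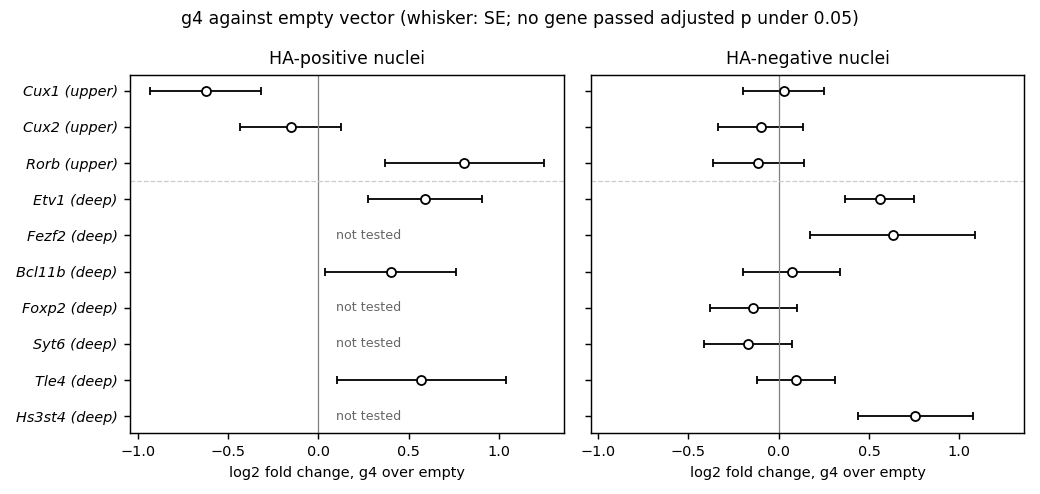
Log2 fold change of each layer gene, g4 over empty (x axis), with SE as whiskers, in HA-positive (left) and HA-negative nuclei (right). All points are open because no gene passed, and Etv1 lies near 0.6 in both panels.

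Whether the vectors differed by another amount in HA-positive than in HA-negative nuclei was tested in 1 model of all 28 libraries. It called 0 of the 10 layer genes and 0.0% of 7197 genes (359 had an unadjusted p under 0.05, and DESeq2 called 0). All 7 deep-layer values were above 0 (median 0.47, against -0.05 over the upper-layer genes and 0.03 over all genes), but the Foxp2 value of 0.92 ± 0.95 became -0.44 ± 0.87 once animal 19's g4 HA-positive library was left out. The medians then were 0.24 over the deep-layer and 0.05 over the upper-layer genes. Syt6 had the value farthest from 0, 2.20 ± 0.85 on the log2 scale (unadjusted p 0.0141, edgeR adjusted p = 0.924), and its g4 HA-positive libraries of animals 18 and 19 were the high ones. Rorb followed with 0.95 ± 0.49 (adjusted p = 0.979) and Cux1 with -0.63 ± 0.38 (adjusted p = 0.996). The fall of the deep-layer genes was thus not shown to differ between vectors.

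Within groups, layer genes of 1 set varied alike from library to library in some pairs and not in others. Group means of log2(CPM + 1) were subtracted, and Spearman's rho was taken over the 28 libraries. Pairs of deep-layer genes ran from -0.17 (Fezf2 with Tle4) to 0.58 (Foxp2 with Hs3st4), and Etv1 with Fezf2 had 0.36. Upper-layer pairs ran from -0.10 (Cux2 with Rorb) to 0.17 (Cux1 with Cux2). Between the sets, Cux2 was below 0 with every deep-layer gene, from -0.13 (Tle4) to -0.49 (Syt6). Cux1 and Rorb had values on both sides of 0. The genes outside the set that varied most like the deep-layer sum, among 7187, were Ubp1 (0.74), Ryr3 (0.73), Cnp (0.73), A830082N09Rik (0.68) and Pacs2 (0.67), and most like the upper-layer sum Tspyl4 (0.68), Arrb1 (0.64), Csnk1g3 (0.62), Srp54a (0.61) and 6030458C11Rik (0.61). Cnp is an enzyme of myelin-forming cells and Ryr3 a calcium channel. These values describe 28 libraries that share animals and differ in depth.

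In the genome (GRCm38, GENCODE vM21) the upper-layer genes were Cux1 at chr5:136248135-136567490, Cux2 at chr5:121856366-122050102 and Rorb at chr19:18930605-19111196, all on the minus strand. The deep-layer genes on the minus strand were Fezf2 at chr14:12342094-12348189, Bcl11b at chr12:107910403-108003602 and Tle4 at chr19:14448150-14598051. Those on the plus strand were Etv1 at chr12:38779380-38870484, Foxp2 at chr6:14901349-15441977, Syt6 at chr3:103575231-103645569 and Hs3st4 at chr7:123982869-124398989. All 10 are annotated as protein coding. The strand setting of the counting is not given in the sources used here, so reads of exons shared with genes on the other strand cannot be told apart. Such overlaps covered 8.67% of the exon bases of Syt6 (505 bases with Atg4a-ps), 4.08% of Hs3st4 (130 bases with Gm27040) and 1.97% of Cux1 (394 bases with Gm16599).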

How the data were processed

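RNA of sorted nuclei was measured in 28 libraries, 7 per group, with groups and animals taken from the titles. The authors deposited unnormalised read counts for every gene and library, per the labels' description of the tables. The genome build was GRCm38, per the submitters' processing notes. Which aligner, counter and strand setting were used, and whether molecular identifiers were, is not given in the sources used here. For the animals titled 21, 22 and 23 the column number was 1 higher, and the sample descriptions tied column to sample. Cells without a value were read as 0, and 1 entry of 41550 that named no gene was left out.

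Each pair of groups was fitted in edgeR 4.0.16 (R 4.3.3) on all genes kept by filterByExpr, with TMM factors and the robust, two-sided quasi-likelihood test, and genes with a Benjamini-Hochberg adjusted p under 0.05 were called. Adjusted p-values are edgeR's where no tool is named. The SE of a log2 fold change was its size divided by the square root of that test's F statistic. It thus restates the test and is not a separate measure of spread. CPM used TMM factors over all 28 libraries. Sorting comparisons share libraries with the vector comparisons. Alternatives were an animal block, DESeq2 1.42.0, RLE factors, no filter, all libraries in 1 fit, libraries left out and other forms of the ratio. The scripts were tested on simulated data. Every layer gene is named. Of the other lists, tested genes were counted and called layer genes named. The layer genes and lists were chosen with earlier results of these data known.

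Both vectors and fractions came from the same animals, so the numbers pair the libraries. The correlation of same-animal deviations from the group means had a median of 0.034 and 0.036 in the sorting comparisons (empty and g4) and 0.010 and 0.070 between vectors (HA-positive and HA-negative).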

Additional observations from a re-analysis of the deposited data

Results flagged for a closer look

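In 5 of 44 sets of 7 libraries looked at (each layer gene and the ratio in each group), 1 library stood farther from the rest than Dixon's test allows at 95%, where chance gives about 1 in 20. In empty HA-positive libraries these were Rorb in animal 21, with 95.9 CPM against 10.5 to 28.7 CPM in the others, and Syt6 in animal 17, with 25.1 CPM against 0 to 8.43 CPM. In g4 HA-positive libraries it was Foxp2 in animal 19, with 33.9 CPM against 0 to 7.72 CPM. In empty HA-negative libraries these were Cux1 in animal 23, with 106 CPM against 46.0 to 71.8 CPM, and Bcl11b in animal 21, with 157 CPM against 72.1 to 109 CPM.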

How the results depend on the processing

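At this depth 1 count was worth 1.09 to 3.84 CPM, so a layer gene under about 10 CPM rested on a few counts per library, and Fezf2, Foxp2, Syt6 and Hs3st4 could not be tested between vectors in HA-positive nuclei. Over settings that kept all animals, 274 values kept their direction and side of the threshold, 3 reversed, 2 gained a call and 1 lost it. The 274 include 10 values that could not change. Between vectors in HA-negative nuclei, no library had fewer than 10000 genes, so that setting repeated the main fit. Those that reversed were Rorb between fractions with g4 without the libraries under 10000 genes (-0.024), and the difference between vector effects for Cux2 (0.05) and Foxp2 (-0.44) with animal 19's g4 HA-positive library left out. The difference in the upper-to-deep ratio between fractions of the empty hemispheres was 2.45, against 1.70, without Etv1 and Rorb, an alternative chosen after seeing the data. The animal block (replicate block) changed no call of a layer gene: it called 4 in each sorting comparison, with Syt6 with g4 at -1.80 (adjusted p = 0.0565).

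Leaving out each animal in turn, the count of layer genes called lower ran from 2 to 5 with the empty vector (2 without animal 19). With g4 it ran from 1 to 4 (2 without animal 17 or 21, and 1 without animal 22). The count called higher with g4 ran from 0 to 1 (1 without animal 19). Over all genes, calls lower ran from 129 (without animal 19) to 188 (without animal 22) with the empty vector. With g4 they ran from 91 (without animal 21) to 209 (without animal 19). Small differences crossed 0: between vectors in HA-negative nuclei Cux1 ran from -0.10 to 0.25, Cux2 from -0.23 to 0.12, Bcl11b from -0.039 to 0.18 and Foxp2 from -0.22 to 0.014, and in HA-positive nuclei Cux2 from -0.29 to 0.011. Rorb between fractions with g4 ran from -0.082 to 0.19, and was 0.22 with only animal 19's HA-positive library left out. In the difference between vector effects Cux2 ran from -0.32 to 0.23, Etv1 from -0.19 to 0.29, Foxp2, which did not cross 0, from 0.52 to 1.63 and Hs3st4 from -0.030 to 0.68. The cause was not tested.

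Over all genes, calls lower in empty HA-positive nuclei were 194, and 426 with DESeq2, 428 with no filter and 347 in the fit of all 28 libraries. Between vectors in HA-positive nuclei 1 gene rose and 2 fell, against 5 and 8 with DESeq2, 14 and 14 with no filter, 6 and 2 in the fit of all libraries, 2 and 3 without the g4 library of animal 19, 0 and 1 with the animal block and 0 and 0 without the libraries under 10000 genes (426 with an unadjusted p under 0.05).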
